A study of Homo sapiens with 6 samples.

Results

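The inhibitors of apoptosis (IAPs), the TNF receptor-associated factors (TRAFs) and the receptor-interacting protein (RIP) kinases carry signals from death receptors, cytokine receptors and NOD receptors to NF-kB and to the caspases. The 10 genes considered were BIRC2, BIRC3, XIAP and BIRC6 of the IAP family, CFLAR, which encodes the caspase-8 inhibitor c-FLIP, TRAF1, TRAF2 and TRAF3, and RIPK1 and RIPK2. Every probe set that the platform annotation gives to exactly 1 of these symbols was taken. This gave 30 of the 54613 probe sets tested, for 7 of the 10 genes. The annotation names no probe set with BIRC3, TRAF2 or RIPK1 alone, so these 3 genes were not analysed here.

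ONS-76 (ONS76 in the sample labels) is an established human medulloblastoma cell line. Expression was read from total RNA on 6 arrays of the Affymetrix U133 Plus 2.0 design. For 3 of them the cells had been transfected with 1 siRNA against KDM1A (siKDM1A, replicates a, b and c), and for the other 3 with reagent but no siRNA (control, replicates a, b and c). All cells were of this 1 line, and the methods describe independent transfection experiments for each array. Because the control cells took up no siRNA, loss of KDM1A and delivery of an siRNA cannot be told apart in any difference. The labels name the siRNA target as KDM5A and also as LSD1, which is another name of KDM1A, and place the harvest at 48 h. A later time stands in the text of the paper. All values below are the deposited log2 values after robust multi-array averaging (RMA), and all differences are siKDM1A minus control.

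The targeted gene followed the name LSD1. KDM1A read log2 6.25, 6.34 and 6.31 on the siKDM1A arrays and 9.50, 9.57 and 9.49 on the control arrays, a difference of -3.22 (SE 0.08, limma adjusted p = 7.1e-07). None of the 5 KDM5A probe sets passed the test, with differences from -0.39 to 0.06. The largest of these, on 226371_at, had a limma adjusted p of 0.0563 and passed after median centring, without dim probe sets, with an intensity trend and a robust prior, and with array weights. Array medians lay between 5.09 and 5.16, and arrays correlated at 0.994 to 0.998 within a group and 0.991 to 0.994 between groups. The difference between 3' and 5' control probe sets for ACTB was 0.72 to 1.41 on siKDM1A and 0.86 to 1.43 on control arrays, so the groups overlapped in this sign of RNA integrity. Of 15 measured medulloblastoma and neural markers, OTX2 and EOMES read below the lower quartile on all arrays and PAX6 and GLI2 below its median. Their summed level was 93.73 to 94.54 in siKDM1A and 93.01 to 94.31 in control cells, with ZIC1, ZIC2 and SOX2 called lower and MAP2 called higher. Among 18 markers of glia, leukocytes, endothelium, epithelium and fibroblasts, PECAM1 alone was called, and EPCAM, PTPRC, CD14, AQP4, OLIG2 and COL1A2 read below the median of every array. The other markers of these lists did not. The brightest were VIM (mean of log2 13.03 in control cells), KRT8 (10.61), MBP (7.79), CDH5 (7.58) and COL1A1 (7.37). The summed level of the 3 epithelial markers was 19.95 to 20.36 in siKDM1A and 19.13 to 19.63 in control cells, without overlap, with differences of 0.23 for EPCAM, 0.12 for CDH1 and 0.35 for KRT8 that did not pass. The summed levels of the lists for glia, leukocytes, endothelium and fibroblasts overlapped between the groups, and PECAM1 differed by 0.35 (limma adjusted p = 0.0349). The part of these markers in the results below was not tested.

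IAPs are defined by a baculoviral IAP repeat, and several of them also carry a RING domain that attaches ubiquitin. BIRC2 (cIAP1) is recruited to TNF receptors by TRAF2 and ubiquitinates RIPK1, which holds the receptor complex in its NF-kB-activating form. The same ligase, brought together with TRAF3, keeps the kinase NIK (gene MAP3K14) low and so restrains the noncanonical NF-kB pathway. The CFLAR product c-FLIP blocks caspase-8 at death receptors.

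In the siKDM1A cells BIRC2, TRAF1, TRAF3 and RIPK2 were higher than in control cells, by 1.36- to 1.84-fold. XIAP, BIRC6 and CFLAR had no probe set that passed the test. A call means a limma adjusted p under 0.05 over all 54613 probe sets. Of the 30 probe sets 5 were called higher and 0 lower, where 2.18% of all probe sets were called higher and 3.73% lower. All 3 siKDM1A arrays lay above all 3 control arrays for 9 of the 30 (11.1% of all probe sets) and below them for 6 (13.4% of all probe sets), and the groups overlapped for 15. With the brightest probe set standing for each gene, 4 of 7 genes were called higher and 0 lower, against 3.45% and 5.46% of 19775 genes. The genes considered here were chosen with earlier results of these data known, so these shares are not an independent yardstick. The median difference was 0.05 over the 30 probe sets and 0.01 over all probe sets. With the one-way analysis of variance of the methods, which estimates the spread of each probe set on its own, 0 of the 30 passed after adjustment and 12 had an unadjusted p under 0.05. That test called 1.24% of all probe sets. A rise in RNA per cell and a rise in the share of cells that express a gene cannot be told apart in these bulk samples.

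**Figure D1:**
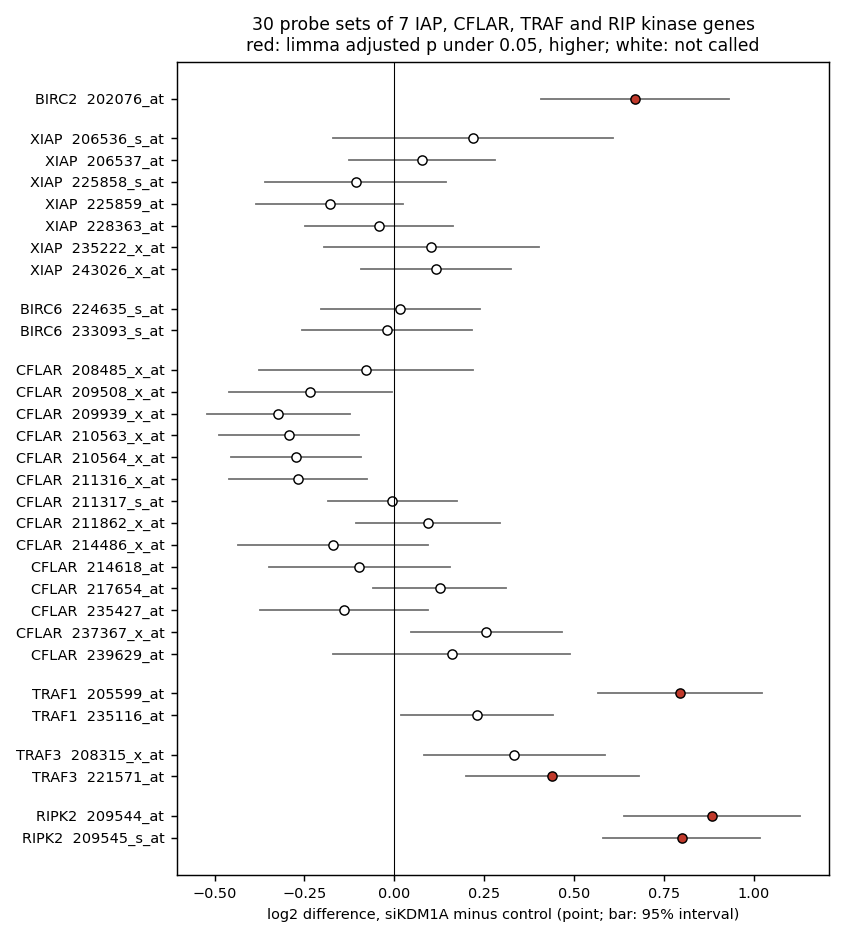
Difference between siKDM1A and control cells (x axis, log2 units) for each of the 30 probe sets (rows, grouped by gene), with its 95% interval from limma as a bar. The 5 filled points, of BIRC2, TRAF1, TRAF3 and RIPK2, were called higher, and the 25 open points were not called, among them the 14 CFLAR probe sets that lie on both sides of 0.

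RIPK2, the kinase that relays signals of the bacterial peptidoglycan sensors NOD1 and NOD2 to NF-kB, passed on both of its probe sets, with differences of 0.80 and 0.88. On 209545_s_at the siKDM1A arrays read 9.99, 10.15 and 9.88 and the control arrays 9.13, 9.24 and 9.25. The lowest siKDM1A value lay well above the highest control value. The means were 10.01 ± 0.14 and 9.21 ± 0.07 (SD, n = 3 each), a 1.74-fold increase with a 95% interval of 1.50 to 2.02 (limma adjusted p = 0.00197). On 209544_at the siKDM1A arrays read 8.32, 8.45 and 8.05 and the control arrays 7.39, 7.38 and 7.40. The control arrays nearly coincided (SD 0.01), whereas the siKDM1A arrays spread over a wider range (SD 0.20), with replicate c lowest. The increase was 1.84-fold (1.56 to 2.18, limma adjusted p = 0.00215), and both probe sets kept their call whichever array was left out.

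TRAF1, a TRAF without a RING domain that forms complexes with TRAF2 and the cIAPs, was higher on the brighter of its 2 probe sets. On 205599_at the siKDM1A arrays read 6.95, 6.96 and 7.03 and the control arrays 6.27, 5.99 and 6.29. The siKDM1A arrays lay close together (SD 0.04) and control replicate b was the lowest of all. The increase was 1.73-fold (1.48 to 2.03, limma adjusted p = 0.00247) and passed whichever array was left out. The second probe set, 235116_at, read 3.54, 3.70 and 3.66 against 3.34, 3.52 and 3.33, and its mean over the arrays lay under the lower quartile of such means. There the groups did not overlap but nearly touched, and the difference was 0.23 (95% interval 0.02 to 0.44, limma adjusted p = 0.220).

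TRAF3, which with TRAF2 and the cIAPs degrades NIK and which also serves in interferon induction, was called on 1 of its 2 probe sets. On 221571_at the siKDM1A arrays read 8.21, 8.45 and 8.56 and the control arrays 7.99, 7.89 and 8.02. The groups did not overlap, and siKDM1A replicate a lay nearest to the controls. The increase was 1.36-fold (1.15 to 1.60, limma adjusted p = 0.0436). This call was kept without siKDM1A replicate a (limma adjusted p = 0.0239) and was lost on leaving out any other array, with a limma adjusted p of up to 0.150. On 208315_x_at the arrays read 6.95, 7.08 and 6.94 against 6.45, 6.85 and 6.67, again without overlap, and the difference of 0.33 did not pass (95% interval 0.08 to 0.59, limma adjusted p = 0.135). Identifiers ending in _x_at mark probe sets whose probes can also match other transcripts. With the mean of both probe sets in place of the brighter one, the TRAF3 difference was 0.39 (limma adjusted p = 0.0151 over 19775 genes).

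BIRC2 was measured by 1 probe set, 202076_at. It read 9.05, 9.32 and 9.01 on the siKDM1A arrays and 8.29, 8.59 and 8.50 on the control arrays, without overlap. In both groups replicate b was the highest. The means were 9.13 ± 0.17 and 8.46 ± 0.15 (SD, n = 3 each), a 1.59-fold increase with a 95% interval of 1.33 to 1.91 (limma adjusted p = 0.0107). The call held whichever array was left out, with limma adjusted p-values from 0.0186 to 0.0468.

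**Figure D2:**
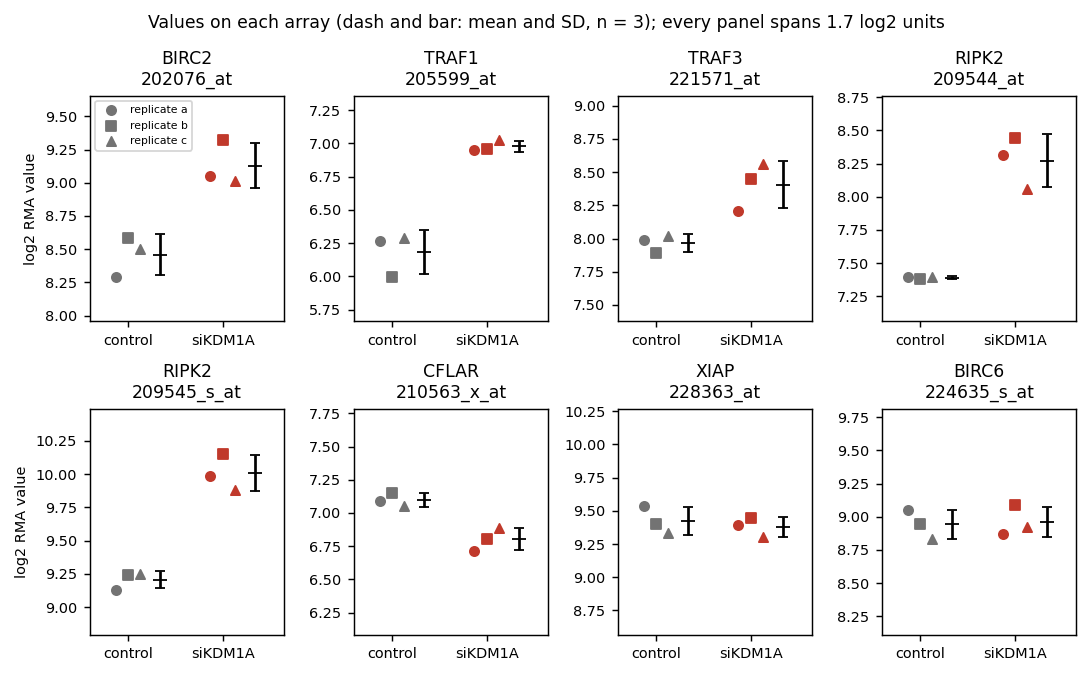
RMA log2 value on each array (points; circle, square and triangle for replicates a, b and c) in control (grey) and siKDM1A (red) cells, with mean and SD (n = 3) beside each group and every panel spanning the same range. The 5 called probe sets of BIRC2, TRAF1, TRAF3 and RIPK2, picked by their calls on these arrays, show no overlap between groups. The brightest CFLAR probe set lies lower in siKDM1A without passing the test, and the brightest XIAP and BIRC6 probe sets overlap.

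The stretches just upstream of BIRC2, TRAF1 and TRAF3 are shown because these genes were called together and belong to a pathway that ends at a DNA-binding factor, NF-kB. Each holds the 250 bases before the most upstream RefSeq transcript start on GRCh38.p14, given 5′ to 3′ on the strand of the gene, and capitals mark a match to the NF-kB consensus. The BIRC2 window is chr11:102346964-102347213 (plus strand, 67.6% G and C), the TRAF1 window chr9:120929172-120929421 (minus strand, 70% G and C) and the TRAF3 window chr14:102777199-102777448 (plus strand, 86.4% G and C).
BIRC2: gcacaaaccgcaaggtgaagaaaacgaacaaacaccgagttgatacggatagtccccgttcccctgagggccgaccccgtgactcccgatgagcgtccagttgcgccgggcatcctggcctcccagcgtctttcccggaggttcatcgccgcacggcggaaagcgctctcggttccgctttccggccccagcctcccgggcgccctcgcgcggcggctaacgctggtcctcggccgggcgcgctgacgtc
TRAF1: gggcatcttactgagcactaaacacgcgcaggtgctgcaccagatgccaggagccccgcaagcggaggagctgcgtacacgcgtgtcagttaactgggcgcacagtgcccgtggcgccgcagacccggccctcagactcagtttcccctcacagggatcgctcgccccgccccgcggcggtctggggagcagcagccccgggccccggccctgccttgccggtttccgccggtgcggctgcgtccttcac
TRAF3: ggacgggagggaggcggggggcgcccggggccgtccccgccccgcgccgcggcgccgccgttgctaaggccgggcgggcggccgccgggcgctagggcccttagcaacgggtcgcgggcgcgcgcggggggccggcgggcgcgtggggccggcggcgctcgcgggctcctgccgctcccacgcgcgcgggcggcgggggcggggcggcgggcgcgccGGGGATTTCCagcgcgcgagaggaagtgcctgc
The windows of 6 of the 7 measured genes were searched on both strands for the NF-kB consensus and for the AP-1 heptamer TGACTCA or TGAGTCA; RIPK2 was left out. TRAF3 held 1 NF-kB match, GGGGATTTCC, 33 to 24 bases before the start. CFLAR held GGGGAATTCC 97 to 88 bases before its start and BIRC6 held GGGGGTCCCC 215 to 206 bases before its start, and neither of these genes was called. BIRC2, TRAF1 and XIAP held no NF-kB match, and none of the 6 windows held the AP-1 heptamer. Of 27326 windows of this length, 9.6% held an NF-kB match and 4.15% an AP-1 heptamer. These shares were not matched for G and C content, which was 76.4% in the BIRC6 window and 58.8% in that of CFLAR. A match describes the letters only, and matches outside these windows were not searched for.

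XIAP, which binds and inhibits caspases directly, was measured by 7 probe sets. Their differences ran from -0.18 to 0.22, with limma adjusted p-values from 0.337 to 0.857, and their 95% intervals lay within -0.38 and 0.61. The groups overlapped on 6 of the 7. The exception, 225859_at, read 7.84, 7.86 and 7.74 in siKDM1A against 8.09, 8.01 and 7.88 in control cells, a difference of -0.18. The brightest XIAP probe set, 228363_at, read 9.39, 9.45 and 9.30 against 9.53, 9.40 and 9.33, a difference of -0.04 (95% interval -0.25 to 0.16). BIRC6, a very large IAP that also conjugates ubiquitin, had differences of 0.02 on 224635_s_at and -0.02 on 233093_s_at. Both 95% intervals lay within -0.26 and 0.24, so on these probe sets a change as large as that of BIRC2 lies outside the interval, and the arrays overlapped.

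CFLAR had 14 probe sets, 9 of them ending in _x_at, and they did not move one way. No CFLAR probe set passed, and differences ran from -0.32 to 0.26 with a median of -0.12. On 5 probe sets all siKDM1A arrays lay below all control arrays (13.4% of all probe sets), and on 2 they lay above (11.1% of all probe sets). On the other 7 the groups overlapped. The largest decrease was on 209939_x_at, with 6.70, 6.70 and 6.86 against 7.14, 7.06 and 7.03. Its difference was -0.32 (95% interval -0.52 to -0.12, limma adjusted p = 0.0695), and it passed after median centring of the arrays. The brightest, 210563_x_at, read 6.72, 6.81 and 6.89 against 7.09, 7.15 and 7.05, a difference of -0.29 (-0.49 to -0.10, limma adjusted p = 0.0909). On 210564_x_at and 211316_x_at the differences were both -0.27 (limma adjusted p = 0.0889 and 0.116) and on 209508_x_at -0.23. In the opposite direction, 237367_x_at read 5.80, 5.62 and 5.84 against 5.47, 5.56 and 5.46, a difference of 0.26 (0.05 to 0.47, limma adjusted p = 0.170). The other, 217654_at, differed by 0.13, and its mean over the arrays lay under the lower quartile of such means. The intervals of 209939_x_at and 237367_x_at, the lowest and highest differences of the 14, lay on opposite sides of 0. These intervals are not adjusted for the number of probe sets, and neither of the 2 passed in the main fit. CFLAR is transcribed into long and short c-FLIP isoforms, and which isoforms each probe set reads was not determined. The mean of the 14 probe sets differed by -0.09 (limma adjusted p = 0.479).

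The partners of these proteins were described by 8 lists of 52 genes, of which 49 had a probe set that names them alone. The lists were chosen with earlier results of these data known, so the shares over all genes below are not an independent yardstick. With the brightest probe set for each gene, 6 were called higher, 2 lower and 41 were not called, where 3.45% of all genes were called higher and 5.46% lower. Their median difference was 0.03, beside 0.01 over all genes.

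The NF-kB subunits and inhibitors held 4 of the 6 higher genes, with 4 of 8 called higher (3.45% of all genes), 0 lower (5.46% of all genes) and a median difference of 0.30. NFKBIA, the inhibitor that holds NF-kB dimers in the cytoplasm, read 9.85, 10.25 and 9.87 in siKDM1A and 9.12, 9.44 and 9.37 in control cells, a 1.60-fold increase (limma adjusted p = 0.0169). NFKB2, which encodes the precursor of the noncanonical subunit p52, read 5.67, 5.44 and 5.61 against 4.96, 4.92 and 5.04, a 1.51-fold increase (limma adjusted p = 0.00642) seen on 1 of 3 probe sets. NFKBIE, a further NF-kB inhibitor, rose 1.40-fold (limma adjusted p = 0.0163). The NFKBIA call was lost without control replicate a or c, and that of NFKBIE without siKDM1A replicate b or control replicate a or c. RELB, the partner of p52, rose 1.35-fold (limma adjusted p = 0.0431), a call that was lost whichever array was left out. With all 6 arrays the RELB call was also lost after median centring (limma adjusted p = 0.0558), with array weights (0.0527) and with the replicate block (0.0670). The arrays of the 2 groups did not overlap for any of these 4 genes (11.1% of all probe sets had all siKDM1A arrays above). The 4 were picked by their calls on the same arrays, so the lack of overlap is no separate evidence. NFKB1 and RELA, the canonical subunits, had differences of 0.06 (95% interval -0.15 to 0.27) and -0.25 (-0.56 to 0.06) that did not pass.

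TNFAIP3, the ubiquitin-editing enzyme A20, which ends TNF receptor and NOD2 signalling by acting on RIPK1 and RIPK2, had the largest difference among the partners. It read 8.93, 9.00 and 8.55 in siKDM1A against 7.19, 7.13 and 7.32 in control cells, a 3.07-fold increase (95% interval 2.52 to 3.74, limma adjusted p = 0.00022), and its second probe set was also called higher. Of 7 measured ubiquitin-editing genes, 1 was thus called higher (3.45% of all genes) and 0 lower (5.46% of all genes). The 6 not called included TNIP1, which helps A20 (0.39, limma adjusted p = 0.0627), and CYLD (0.29, limma adjusted p = 0.311). Of the kinases that lead to NF-kB, 1 of 8 was called higher (3.45% of all genes) and 0 lower (5.46% of all genes). This was MAP3K14 (NIK), the kinase that the TRAF3 and cIAP complex degrades. It read 8.30, 8.27 and 8.42 against 8.01, 7.59 and 7.66, a 1.49-fold increase (limma adjusted p = 0.0233), and lost its call on leaving out any array other than control replicate a. IKBKB and CHUK, the catalytic subunits of the IkB kinase, had differences of -0.41 (limma adjusted p = 0.0586) and -0.14.

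**Figure D3:**
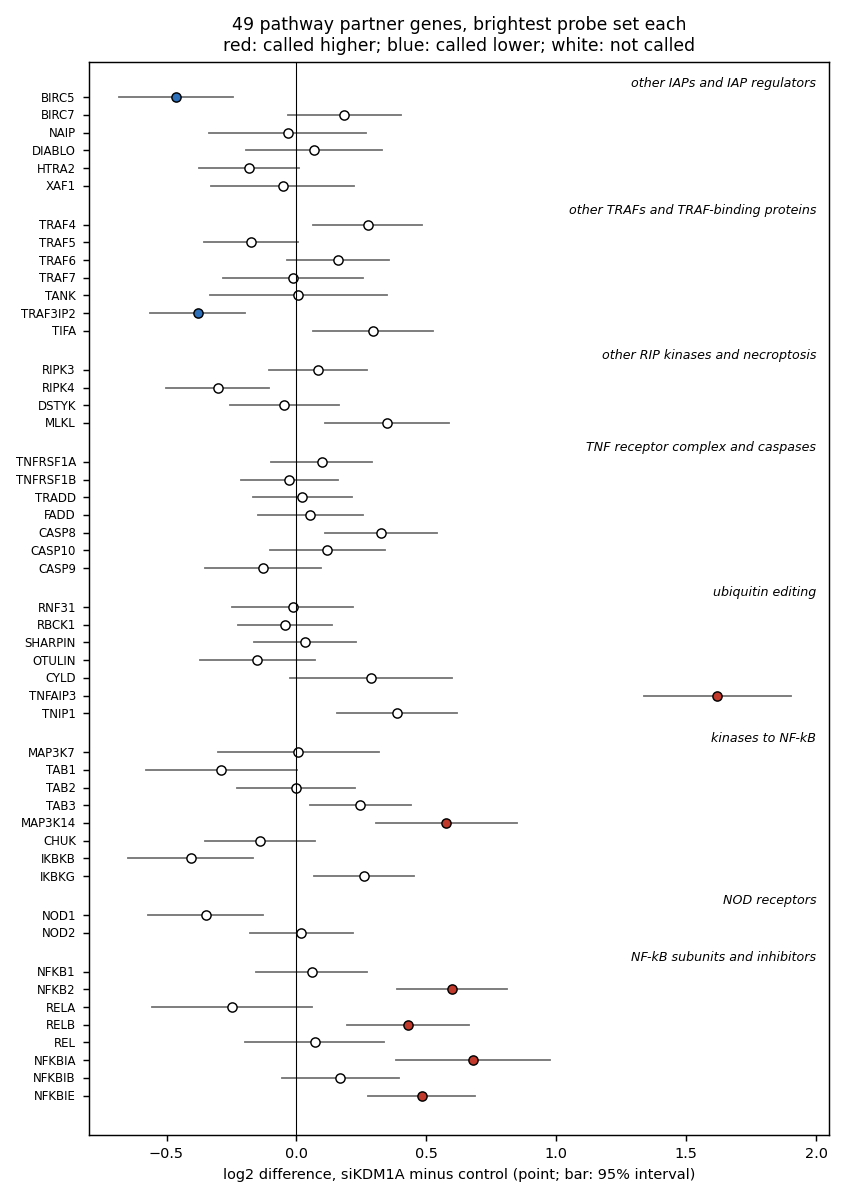
Difference between siKDM1A and control cells (x axis, log2 units) for the brightest probe set of each of 49 partner genes, grouped by list, with 95% intervals from limma. Red points mark the 6 genes called higher, 4 of them NF-kB subunits and inhibitors and the farthest right TNFAIP3, blue points the 2 called lower, BIRC5 and TRAF3IP2, and open points the 41 not called.

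Among 6 other IAPs and IAP regulators, 1 was called lower (5.46% of all genes) and 0 higher (3.45% of all genes). BIRC5 (survivin), an IAP family member that works in chromosome segregation at mitosis, read 10.08, 10.25 and 10.26 in siKDM1A against 10.59, 10.80 and 10.60 in control cells. Its difference was -0.46 (SE 0.10, limma adjusted p = 0.0244), with 2 of its 4 probe sets called lower, and lost the call on leaving out any array except siKDM1A replicate c. BIRC7 (0.18) and DIABLO (0.07), the mitochondrial antagonist of IAPs, did not pass. Among 7 other TRAFs and TRAF-binding proteins, 1 was called lower (5.46% of all genes) and 0 higher (3.45% of all genes). TRAF3IP2, the adaptor of IL17 receptors, read 9.24, 9.21 and 9.33 against 9.66, 9.62 and 9.64 and was lower, with a difference of -0.38 (SE 0.08, limma adjusted p = 0.0263). Both of its probe sets were called, and the brighter lost its call on leaving out any array except siKDM1A replicate c, after cyclic loess (limma adjusted p = 0.0544) and with the replicate block (0.0556). TRAF4 (0.27) and TRAF6 (0.16) did not pass.

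No gene of the other 3 lists was called, where 3.45% of all genes were called higher and 5.46% lower. For the 4 other RIP kinases and necroptosis genes the values included 0.08 for RIPK3 and 0.35 for MLKL, the executor of necroptosis (95% interval 0.11 to 0.59, limma adjusted p = 0.102). For the 7 measured genes of the TNF receptor complex and caspases, CASP8 had a difference of 0.33 (limma adjusted p = 0.0925) and TNFRSF1A, the main TNF receptor, 0.10 (95% interval -0.10 to 0.29). NOD1, which signals through RIPK2, had a difference of -0.35 (95% interval -0.57 to -0.13, limma adjusted p = 0.0771). NOD2 read 3.04 in siKDM1A and 3.03 in control cells on average, under the lower quartile of all arrays. Precision is limited by there being 3 arrays in each group, and an exact permutation test of 3 against 3 cannot reach a two-sided p below 0.1.

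**Figure D4:**
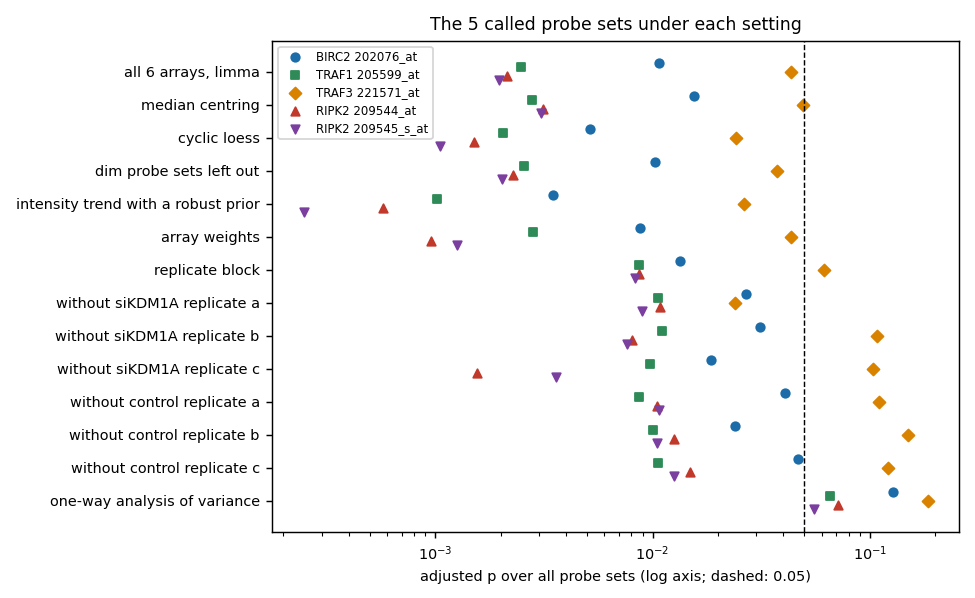
Adjusted p over all probe sets (x axis, log scale, dashed line at 0.05) of the 5 called probe sets under each setting (rows). BIRC2, TRAF1 and both RIPK2 probe sets stay left of the line in every limma setting and lie right of it under the one-way analysis of variance, whereas TRAF3 lies right of it under that test, with the replicate block and when any array other than siKDM1A replicate a is left out.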

How the data were processed

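The 6 arrays hold RNA of ONS-76 cells, 3 siKDM1A and 3 control, grouped by the treatment labels. The authors ran RMA in the Partek Genomics Suite (version: not given in the sources used here). The authors deposited the resulting log2 values, which were used unchanged. RMA gives the arrays a common intensity distribution, so a shift shared by most genes would be largely removed. No detection calls were used here.

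The table holds 54675 probe sets. Without 62 Affymetrix controls, 54613 were fitted with limma 3.58.1 in R 4.3.3 (lmFit, eBayes, two-sided), and p-values were adjusted by Benjamini-Hochberg, with a threshold of 0.05. The platform annotation gave 1 gene for 41091 probe sets, several for 1801 and none for 11721. The members and lists were chosen with earlier results of these data known. All member probe sets, KDM1A, KDM5A, up to 4 called partners per list and up to 2 others as values were named. Partner genes were taken by their brightest probe set. The fit was repeated after median centring, after cyclic loess, without dim probe sets, with an intensity trend and robust prior, with array weights, with the replicate block, without each array in turn and with other probe set rules, and the one-way analysis of variance of the methods was also run. The steps were tested on simulated data. Upstream windows came from a RefSeq promoter table of GRCh38.p14.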

Additional observations from a re-analysis of the deposited data

How the results depend on the processing

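The number of member probe sets called higher, 5, stayed at 5 under median centring, cyclic loess, the filter on dim probe sets, the intensity trend with a robust prior and array weights, was 4 to 5 when 1 array was left out, and was 0 under the one-way analysis of variance of the methods. The corresponding count of genes, 4, was 3 to 4 when 1 array was left out and 0 under that test, which by its construction estimates each spread from 6 arrays alone. Its adjusted p was 0.128 for BIRC2, 0.0653 for TRAF1, 0.186 for TRAF3, and 0.0715 and 0.0552 for RIPK2. Member probe sets called lower, 0, became 1 under median centring, CFLAR 209939_x_at (limma adjusted p = 0.0402). With the replicate block, 4 member probe sets and 3 genes were called higher, the call of TRAF3 being lost. Same-letter arrays deviated together only in part (r = 0.111, 0.23 and -0.135), and the main fit did not pair the arrays by letter. The ACTB 3' minus 5' difference did order the letters alike in both groups. For a, c and b it was 1.41, 0.91 and 0.72 on siKDM1A and 1.43, 1.22 and 0.86 on control arrays. Whether the letters mark a shared batch was not tested. KDM5A 226371_at passed under median centring, the dim filter, the intensity trend with a robust prior and array weights. Partners called higher, 6, ranged from 2 to 4 when 1 array was left out (2 without control replicate c) and from 5 to 8 in the other limma settings, and were 1 (TNFAIP3) under the one-way analysis of variance. Partners called lower, 2, were 4 under median centring, 1 under cyclic loess and 3 without dim probe sets. They were 4 with the intensity trend and a robust prior and 1 with the replicate block. Their count was 1 (TRAF3IP2) under the one-way analysis of variance, and from 0 to 3 when 1 array was left out. The cause of these shifts was not tested. No called value changed direction under any setting run. Dim probe sets, such as TRAF1 235116_at and 4 of CFLAR, limit what could be detected.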
